A study of Homo sapiens with 9 samples.

Results

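The chemokine and IL6 genes described here are the 10 rows of the expression table with the symbols CCL2, CCL5, CCL26, CXCL1, CXCL2, CXCL3, CXCL8, CXCL10, CXCL11 and IL6, out of 22295 entries. They were chosen by symbol with their FPKM values over the 3 groups in view, including the loss of CCL26 at day 7. Their levels and differences are therefore given as a description, without a test. FPKM divides the fragments of a gene by its transcript length and by the library's mapped total, so levels can be compared between genes. Of the 10 genes, 9 were listed above 0 in at least 1 library and 8 had a mean of at least 0.1 FPKM over the 9 libraries, the minimum for entering the fit. CXCL1 and CXCL11 did not reach it. CXCL10 reached it only through the day 7 libraries, and CCL26 only through the day 3 libraries.

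Chemokines are small secreted proteins that attract leukocytes along a gradient, and interleukin 6 (IL6) is a cytokine released by many of the same stimulated cells. Members of the CC family mainly recruit monocytes, T cells and eosinophils. CXC chemokines that carry a glutamate-leucine-arginine motif recruit neutrophils, while those without it that are induced by interferon recruit T cells. Transcription of most of these genes is switched on by the transcription factor NF-kB, often together with AP-1, C/EBP or interferon-activated factors, and their mRNAs are short-lived. Glioblastoma cells are known to secrete CCL2, CXCL8 and IL6 in culture.

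RNA was sequenced from U251 cells, an established human glioblastoma line, after infection with lentivirus that carries an M-cherry marker. There were 3 groups of 3 libraries each. Cells with a luciferase sh-RNA taken 3 days after infection (sh-Luci-3d) are called the control here. Cells with the sh-RNA against PTBP1 are called the day 3 knockdown (sh-Ptbp1-3d, taken after 3 days) and the day 7 knockdown (sh-Ptbp1-7d, taken after 7 days). The labels name no second sh-RNA against PTBP1. The study's methods describe a neuronal induction medium with forskolin, dorsomorphin, N2 and B27 from the second day after infection. No 7-day sh-Luci library was analysed, so knockdown and time in culture or in this medium cannot be told apart in the day 7 comparisons. The 3 comparisons also share groups with each other, and the labels do not say whether the libraries of a group came from separate cultures, so p-values measure only the spread between these libraries.

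PTBP1, the splicing repressor targeted by the sh-RNA, was 111, 112 and 124 FPKM in the control, 66.2, 64.4 and 61.0 FPKM in the day 3 knockdown and 49.7, 50.7 and 51.0 FPKM in the day 7 knockdown. The groups did not overlap. Its log2 fold change was -0.85 ± 0.073 (SE) in the day 3 knockdown against the control (limma, adjusted p = 0.00314) and -1.19 ± 0.073 in the day 7 knockdown against the control (adjusted p = 3.77e-07). The day 3 change was short of the fold change of 2 required below, so PTBP1 itself did not pass at day 3. The 9 libraries listed between 16733 and 17325 entries above 0, and within a group their mean correlation was 0.9795 to 0.9831. The 8 glioma and astroglia markers were all above 0 in each group, and their summed level was 4459 to 4586 FPKM in the control, 4583 to 4879 FPKM in the day 3 knockdown and 1387 to 1510 FPKM in the day 7 knockdown. Nearly all of this sum was VIM, the intermediate filament vimentin, at 4088 to 4488 FPKM in the day 3 libraries and 1094 to 1249 FPKM at day 7. CD44 was also lower at day 7, at 60.4 to 64.6 FPKM against 153 to 199 FPKM, but SOX2 was higher, at 138 to 149 FPKM against 94.6 to 126 FPKM, and so was S100B, at 0.663 to 0.933 FPKM against 0 to 0.225 FPKM. The part of these markers in the day 7 differences below was not tested. In bulk RNA, fewer cells of a type and less RNA per cell cannot be told apart. Markers of the leukocytes that could also make these chemokines were near 0. The 9 monocyte, macrophage and microglia markers summed to 0.722 to 0.943, 0.651 to 0.827 and 0.708 to 1.18 FPKM in the 3 groups in that order, and the 6 lymphocyte markers to at most 0.135 FPKM, with 5 of the 6 at 0 in every group.

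The promoters of these genes are shown first because most of them hold a match to the same short motif. RefSeq promoter windows (build GRCh38.p14, 250 bases before to 50 after the start site) were at hand for 8 of the 10 genes, all except CCL2 and CCL5. A kB-like motif, the kind of site NF-kB binds, was searched as GGANTTTCC on both strands. It was present in 7 of the 8 windows, against 1.64% of 27305 promoters of the same length, and no match lay in the CCL26 window. The following lines give 30 bases around each match, read along the strand of the gene, with the motif in capitals. In CXCL10 and CXCL11 the match is on the opposite strand.
CXCL1 (chr4:73869305-73869334, plus strand): tggaactccgGGAATTTCCctggcccgggg
CXCL2 (chr4:74099253-74099282, minus strand): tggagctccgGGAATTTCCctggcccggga
CXCL3 (chr4:74038748-74038777, minus strand): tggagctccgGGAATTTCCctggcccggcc
CXCL8 (chr4:73740468-73740497, plus strand): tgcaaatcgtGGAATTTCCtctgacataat
CXCL10 (chr4:76023654-76023683, minus strand): aggagcagagGGAAATTCCgtaacttggag
CXCL11 (chr4:76036126-76036155, minus strand): actcaaagagGGAAATTCCtgtgccataaa
IL6 (chr7:22727118-22727147, plus strand): atcaaatgtgGGATTTTCCcatgagtctca
Counted from the start site, the first base of the match lay at -91 to -72 in 6 of the genes and at -176 in CXCL10. The 250 bases before the start site of CXCL1, CXCL2 and CXCL3 were 70.4% to 81.4% identical in pairwise alignments, against 42.6% between CXCL1 and CXCL8.

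Motifs for other factors were also searched on both strands, and no match overlapped another. GAAANNGAA, which resembles the interferon-stimulated response element, was found in 4 of the 8 windows (CXCL2, CXCL3, CXCL10 and IL6), against 8.29% of all promoters. The CXCL10 match is shown because this gene is a classical interferon target.
CXCL10 (chr4:76023699-76023728, minus strand): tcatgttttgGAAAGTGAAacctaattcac
TGANTCA, which resembles an AP-1 site, was found in 2 windows, CXCL8 and CXCL11, against 7.76% of all promoters, and the match is shown for CXCL8.
CXCL8 (chr4:73740421-73740450, plus strand): aggaagtgtgaTGACTCAggtttgccctga
These are matches of letters only, and a window without a match shows only that these letters are not in it.

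**Figure D1:**
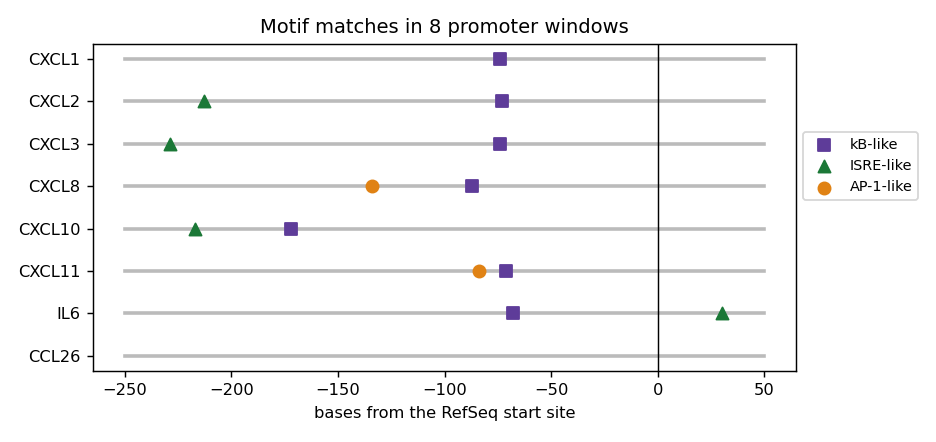
Positions of kB-like (squares), ISRE-like (triangles) and AP-1-like (circles) motif matches in 8 promoter windows, in bases from the RefSeq start site (0, vertical line). The first base of the kB-like match lies at -91 to -72 in 6 genes and at -176 in CXCL10, and the CCL26 window has none.

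At day 3, the chemokine and IL6 transcripts differed little between knockdown and control. The libraries of the day 3 knockdown and the control did not overlap for 2 of the 10 genes, CCL2 and CXCL8, and both were lower in the day 3 knockdown. Counted over the 8 genes in the fit, this was 2 of 8. Over all 15551 genes tested, the libraries did not overlap for 10.8%, and 0.0129% passed the thresholds (fold change above 2 and adjusted p below 0.05) as higher and 0% as lower. At day 7, 5 of the 10 genes were above every library of the day 3 knockdown (CCL2, CCL5, CXCL8, CXCL10 and IL6) and 1, CCL26, was below. The same 5 and 1 genes lay outside the range of the control. This was 6 of the 8 genes in the fit in each comparison. Of these 6, CXCL10 entered the fit only through its day 7 level and CCL26 only through its day 3 levels. The share of all genes whose libraries did not overlap was 62.3% in the day 7 against the day 3 knockdown and 55.9% in the day 7 knockdown against the control, so non-overlap was common at day 7.

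**Figure D2:**
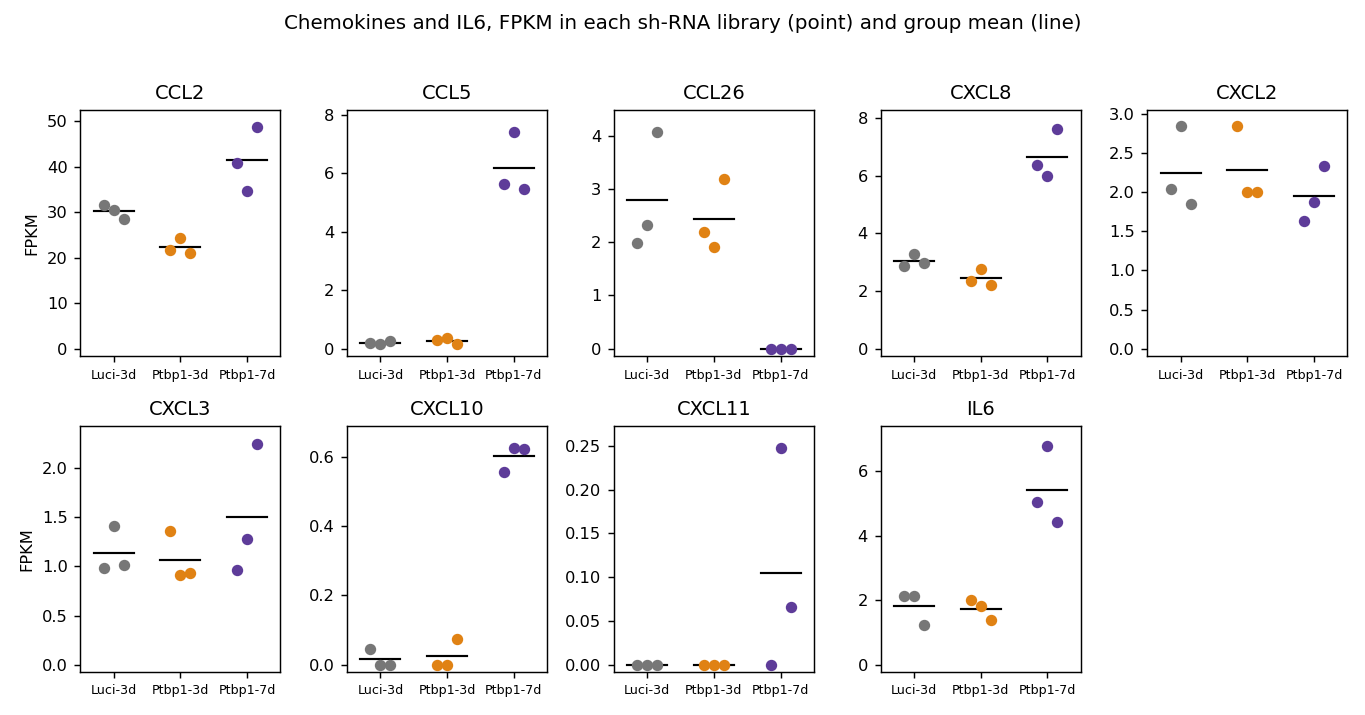
FPKM of 9 genes in each library (points) and the group mean (lines) in the control, the day 3 knockdown and the day 7 knockdown, on linear axes that differ between panels. CCL2, CCL5, CXCL8, CXCL10 and IL6 are higher in all 3 day 7 libraries than in any day 3 library. CCL26 is listed at 0 in all 3 day 7 libraries, and CXCL1, at 0 in every library, is not drawn.

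CCL2, the monocyte attractant also called MCP-1, lies at chr17:34255218-34257203 on the plus strand (GRCh38, GENCODE v29). It was 31.6, 30.4 and 28.5 FPKM in the control, 21.7, 24.4 and 21.1 FPKM in the day 3 knockdown and 40.9, 34.6 and 48.6 FPKM in the day 7 knockdown. The control level thus sat between the others, with no overlap between any pair of groups. On the scale of log2(FPKM + 0.1), used for all differences here, CCL2 was lower by -0.43 ± 0.118 (SE) in the day 3 knockdown against the control and higher by 0.87 ± 0.118 in the day 7 against the day 3 knockdown. Against the control the day 7 difference was 0.44, at percentile 70.9 of the differences of all genes tested. CCL2 was the most abundant of the 10 genes and made up 58.8% to 75.5% of their summed FPKM. That sum was 39.9 to 42.6 FPKM in the control, 31.1 to 34.2 FPKM in the day 3 knockdown and 58.8 to 71.4 FPKM in the day 7 knockdown. Without CCL2, it was 10.2 to 12.2, 9.75 to 11.02 and 20.2 to 24.2 FPKM.

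CCL5 (RANTES), an attractant of T cells and monocytes at chr17:35871491-35880793 on the minus strand, had the largest day 7 ratio among those of the 10 genes with a value above 0 in every library. It was 0.194, 0.174 and 0.254 FPKM in the control and 0.290, 0.359 and 0.155 FPKM in the day 3 knockdown. In the day 7 knockdown it was 5.64, 7.42 and 5.45 FPKM. The day 3 groups overlapped, and every day 7 library was far above them. The mean was 6.17 ± 1.09 FPKM (SD, n = 3) at day 7 against 0.268 ± 0.104 in the day 3 knockdown, a ratio of 23.0, and the log2 difference was 4.12 ± 0.249 (SE). This lay at percentile 99.8 of all genes tested, and with a pseudocount of 1 in place of 0.1 it was 2.49.

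CCL26 (eotaxin-3), an eosinophil attractant induced by IL4 and IL13 through STAT6, lies at chr7:75769533-75789896 on the minus strand. It was 1.98, 2.32 and 4.07 FPKM in the control and 2.19, 1.91 and 3.19 FPKM in the day 3 knockdown. In the day 7 knockdown it was listed at 0 in all 3 libraries. No fold is given, since the table holds no counts and the depth is unknown. The day 3 groups overlapped, and replicate 3 was the highest library in each of them. STAT6 was listed at a low level in every group, with means of 0.0325 FPKM in the control, 0.0890 FPKM in the day 3 knockdown and 0.0686 FPKM in the day 7 knockdown. The entries also include 2363 assembled loci, and whether one of them lies at STAT6 was not checked. The low STAT6 level is therefore uncertain. IL13RA1, a chain of the receptor for IL4 and IL13, was 11.7 ± 0.871 FPKM (SD, n = 3) in the control, 11.8 ± 0.0726 in the day 3 knockdown and 20.4 ± 0.495 in the day 7 knockdown, short of the fold threshold of 2. IL4R, another chain of this receptor, went the other way. Its day 7 libraries lay below those of both day 3 groups, and it did not pass. The log2 difference was -0.78 ± 0.253 (SE) against the day 3 knockdown and -0.54 ± 0.253 against the control. IL13RA2 overlapped between the groups (-0.13 ± 0.108 against the day 3 knockdown). STAT6 and these receptor chains were named after their values were seen.

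Among the neutrophil attractants, CXCL8 (interleukin 8) was higher at day 7 in every library, while CXCL2 and CXCL3 overlapped between all groups. These genes are neighbours on chromosome 4, with CXCL8 at chr4:73740506-73743716 and CXCL1 at chr4:73869393-73871242 on the plus strand, and CXCL3 at chr4:74036589-74038807 and CXCL2 at chr4:74097035-74099293 on the minus strand. CXCL8 was 2.87, 3.28 and 2.98 FPKM in the control, 2.35, 2.76 and 2.203 FPKM in the day 3 knockdown and 6.37, 5.97 and 7.62 FPKM in the day 7 knockdown. All groups were separate from each other, in the same order as for CCL2. Its log2 difference was -0.31 ± 0.134 (SE) in the day 3 knockdown against the control, 1.41 ± 0.134 in the day 7 against the day 3 knockdown and 1.10 ± 0.134 in the day 7 knockdown against the control.

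CXCL2 was 2.03, 2.85 and 1.85 FPKM in the control, 2.85, 2.0 and 2.0 FPKM in the day 3 knockdown and 1.64, 1.87 and 2.33 FPKM in the day 7 knockdown. CXCL3 was 0.983, 1.41 and 1.01 FPKM in the control, 1.36, 0.910 and 0.928 FPKM in the day 3 knockdown and 0.966, 1.28 and 2.25 FPKM in the day 7 knockdown. Neither gene separated any pair of groups. The day 7 differences against the day 3 knockdown were -0.21 ± 0.208 (SE) for CXCL2 and 0.40 ± 0.287 for CXCL3, and the latter was 0.08 without day 7 knockdown replicate 3, the highest library. CXCL1, a close relative of this pair, was listed at 0 in all 9 libraries. These paralogs can share reads: of the stretches of 50 bases in their annotated transcripts, 12.5% in CXCL2, 6.01% in CXCL3 and 4.81% in CXCL1 also occur in another of the 10 genes, against 0% for the other 7. How such reads were assigned is not given in the sources used here, so the values of CXCL1, CXCL2 and CXCL3 are uncertain by an amount that was not measured.

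CXCL10 and CXCL11, T cell attractants induced by interferon, were at the bottom of the range in day 3 cells. CXCL10, at chr4:76021117-76023497 on the minus strand, was 0.0462, 0 and 0 FPKM in the control and 0, 0 and 0.0745 FPKM in the day 3 knockdown. It was 0.558, 0.627 and 0.624 FPKM in the day 7 knockdown, with no overlap. The log2 difference of the day 7 against the day 3 knockdown was 2.54 ± 0.354 (SE), and with 4 of the 6 day 3 libraries at 0 it depended on the pseudocount, from 0.65 with 1 to 4.91 with 0.01. CXCL11, at chr4:76033682-76041415 on the minus strand, was listed at 0 in all 6 day 3 libraries and was 0, 0.248 and 0.0653 FPKM in the day 7 knockdown. Only 2 of the 9 libraries thus listed it above 0. Both genes lie inside ART3, annotated on the opposite strand and listed at 0 in 8 of the 9 libraries (0.0231 FPKM in the other).

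IL6 lies at chr7:22725884-22732002 on the plus strand. It was 2.13, 2.14 and 1.23 FPKM in the control, 1.998, 1.81 and 1.40 FPKM in the day 3 knockdown and 5.07, 6.80 and 4.43 FPKM in the day 7 knockdown. The day 3 groups overlapped and the day 7 libraries lay above both. The log2 difference was 1.58 ± 0.235 (SE) against the day 3 knockdown and 1.54 ± 0.235 against the control, at percentiles 95.8 and 95.2 of all genes tested. The 5′ end of IL6 overlaps STEAP1B on the opposite strand, which was 0 to 0.553 FPKM in the 9 libraries. CCL5 and IL6 also overlap annotated antisense transcripts, and whether counting used strand is not given in the sources used here.

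**Figure D3:**
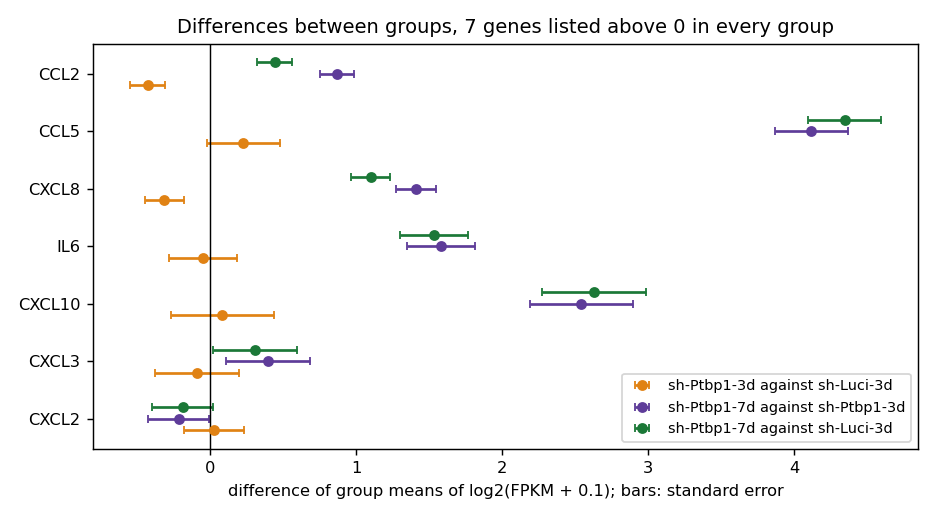
Differences between group means of log2(FPKM + 0.1) in the 3 comparisons for the 7 genes with a value above 0 in every group (points) with standard errors (bars). The day 3 differences lie between -0.43 and 0.23, and the day 7 differences against the day 3 knockdown run from -0.21 for CXCL2 to 4.12 for CCL5.

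The order of the levels changed between the groups. In the control, CCL2 (mean 30.1 ± 1.57 FPKM, SD, n = 3) was followed by CXCL8 (3.04 ± 0.212), CCL26 (2.79 ± 1.12), CXCL2 (2.24 ± 0.530), IL6 (1.83 ± 0.524), CXCL3 (1.13 ± 0.240) and CCL5 (0.207 ± 0.0418). Each neighbouring pair from CXCL8 to CXCL3 overlapped between libraries. In the day 7 knockdown, CCL2 (41.4 ± 7.05 FPKM) was followed by CXCL8 (6.65 ± 0.860), CCL5 (6.17 ± 1.09) and IL6 (5.43 ± 1.22), which overlapped with each other. CXCL2 (1.95 ± 0.356) and CXCL3 (1.498 ± 0.670) came next and overlapped, ahead of CXCL10 (0.603 ± 0.0393). By group mean, CCL5 went from percentile 27.7 of the 19640 entries listed above 0 anywhere in the control to percentile 60.6 in the day 7 knockdown.

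Of the 37 other chemokine ligands in the table, 21 were listed at 0 in every library, and 2 had a mean of at least 1 FPKM in some group. Both are made as membrane-anchored chemokines. CXCL16, the ligand of CXCR6, was 1.56, 2.13 and 2.41 FPKM in the control, 1.99, 2.05 and 2.12 FPKM in the day 3 knockdown and 36.6, 35.8 and 34.8 FPKM in the day 7 knockdown. At day 7 its libraries overlapped in level with those of CCL2 (34.6 to 48.6 FPKM). CX3CL1 (fractalkine), a ligand of microglia, was 0.0407, 0.103 and 0.0438 FPKM in the control, 0.0330, 0.0182 and 0.0658 FPKM in the day 3 knockdown and 1.36, 1.35 and 1.18 FPKM in the day 7 knockdown. Their log2 differences of the day 7 against the day 3 knockdown were 4.06 ± 0.141 (SE) and 3.34 ± 0.284. These were picked by level in these libraries and are given without a test.

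The receptors of these chemokines were nearly absent. CCR2 (for CCL2), CCR3 (for CCL26 and CCL5), CXCR1 and CXCR2 (for CXCL8 and its relatives) and the scavenging receptor ACKR1 were listed at 0 in all 9 libraries. CCR1, a receptor of CCL5, was listed at 0 in the 6 day 3 libraries and was 0.297, 0.235 and 0.194 FPKM in the day 7 knockdown. CXCR3, the receptor of CXCL10 and CXCL11, and ACKR3, which binds CXCL11, were at most 0.101 FPKM and 0.0809 FPKM in any library. Of the 24 receptors on the list, 2 reached the minimum for the test (CCR10 and CCRL2) and 0 passed it in any comparison by limma, with 0 also at an unadjusted p below 0.05. CCR1 fell below the minimum mean, and it passed in both day 7 comparisons with no minimum and with values rescaled to TPM. Its only values above 0 were those of the day 7 libraries, so these calls are no support for a rise.

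At day 3, no gene passed the thresholds in any of the 6 pathway lists by limma. At an unadjusted p below 0.05 there were 0 among the receptors, 2 of 17 genes of the IL6 family and its signalling, 0 of 18 inducing cytokines and their receptors, 3 of 24 transcription factors and inhibitors, 2 of 13 regulators of mRNA stability and 1 of 13 other inflammatory genes. That is 8 of 87 genes in all, close to the 7.24% of all genes tested. At day 7 the thresholds were a fold change above 2 and an adjusted p below 0.01. Of all genes tested, 8.31% passed as higher and 5.9% as lower in the day 7 against the day 3 knockdown, with a median log2 difference of 0.09. In the day 7 knockdown against the control, 8.93% passed as higher and 5.68% as lower, with a median of 0.10, and 61.1% of the genes that passed were higher, against 49.3% after quantile normalization.

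While IL6 transcripts were higher in every day 7 library, those of its own receptor chain fell. IL6R, the chain that binds IL6, was 1.02, 0.803 and 1.11 FPKM in the control, 1.199, 1.35 and 0.977 FPKM in the day 3 knockdown and 0.114, 0.154 and 0.160 FPKM in the day 7 knockdown. It fell with a log2 fold change of -2.39 ± 0.216 (SE; limma, adjusted p = 7.04e-06) against the day 3 knockdown. IL6ST (gp130), the chain that signals for the whole family, was 13.1 to 21.2 FPKM in the control, 16.8 to 18.0 FPKM in the day 3 knockdown and 15.1 to 19.9 FPKM in the day 7 knockdown, and did not pass (log2 fold change 0.05 ± 0.170, adjusted p = 0.822). Of the 17 genes tested in this list, 3 rose and 4 fell against the day 3 knockdown, with a median of 0.05, and 4 rose and 4 fell against the control, with a median of 0.33.

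The other cytokines of the family did not move together. IL11 was 2.14, 2.49 and 3.04 FPKM in the control, 4.01, 4.63 and 3.96 FPKM in the day 3 knockdown and 0.537, 0.463 and 0.897 FPKM in the day 7 knockdown. Its log2 fold change of day 7 against day 3 knockdown was -2.60 ± 0.217 (SE; limma, adjusted p = 4.13e-06). LIF, which signals through LIFR and gp130, rose from 4.56, 4.31 and 4.10 FPKM to 12.1, 11.9 and 10.8 FPKM (1.40 ± 0.169, adjusted p = 5.60e-05). CNTF fell (-1.41), as did PTPN11, a phosphatase downstream of gp130 (-1.08). JAK2, a kinase of the receptor, rose (1.26), and so did SOCS1, a feedback inhibitor of JAK kinases (1.36). Against the control, these genes passed in the same direction, and SOCS3, the feedback inhibitor that acts on gp130, passed as well (1.24 ± 0.132, adjusted p = 2.33e-05).

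**Figure D4:**
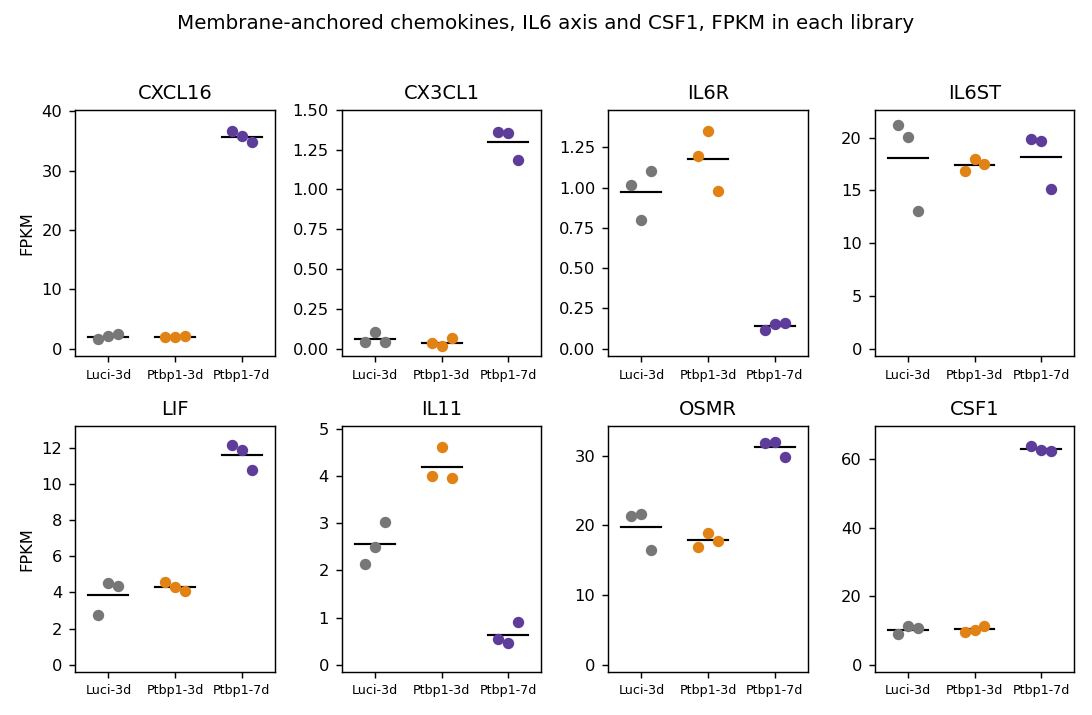
FPKM of 8 genes in each library (points) and the group mean (lines), on linear axes that differ between panels. CXCL16, CX3CL1, LIF, OSMR and CSF1 are higher in every day 7 library than in any day 3 library, IL6R and IL11 are lower, and IL6ST overlaps between the groups.

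Upstream, 4 of the 18 inducing cytokines, receptors and sensors tested passed as higher in the day 7 against the day 3 knockdown and 0 as lower, with a median log2 difference of 0.42. TLR3, a sensor of double-stranded RNA, was 1.74, 2.04 and 2.14 FPKM in the day 3 knockdown and 13.2, 13.3 and 12.8 FPKM in the day 7 knockdown (log2 fold change 2.68 ± 0.164, SE; limma, adjusted p = 4.08e-07). IFNB1 (interferon beta) was 0, 0 and 0 FPKM in the control, 0, 0.116 and 0 FPKM in the day 3 knockdown and 0.567, 0.294 and 0.762 FPKM in the day 7 knockdown. IFNB1 is counted among the genes that passed, but it reached the minimum mean only through the day 7 libraries, so its call is no support for a rise. The chains of the interleukin 1 receptor, IL1RAP (1.02) and IL1R1 (1.01), lay just past the fold threshold, and the count was 2 without day 3 knockdown replicate 3. Against the control, 3 passed as higher (TLR3, IFNB1 and IL1R1, with the same limit for IFNB1) and 0 as lower, with a median of 0.49.

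Of the 24 transcription factors and inhibitors tested, 8 rose and 0 fell against the day 3 knockdown, with a median log2 difference of 0.83. FOS, a subunit of AP-1, was 0.596, 0.563 and 0.225 FPKM in the day 3 knockdown and 2.38, 2.99 and 3.08 FPKM in the day 7 knockdown (log2 fold change 2.45 ± 0.402, SE; limma, adjusted p = 0.000511). IRF1, an interferon-activated factor, was 9.27, 9.003 and 11.5 FPKM and then 35.9, 39.9 and 37.8 FPKM (1.93 ± 0.133, adjusted p = 9.81e-07). STAT2, part of the complex that binds the interferon-stimulated response element, was 36.9, 40.8 and 39.7 FPKM and then 115, 114 and 103 FPKM (1.498 ± 0.087, adjusted p = 2.96e-07). The others included CEBPD, RELB, ATF3 and BCL3, with log2 fold changes of 1.06 to 1.45. RELB was the only NF-kB subunit that passed. RELA (0.27), NFKB1 (0.46), NFKB2 (0.80) and REL (0.02) did not. Against the control, 8 also rose and 0 fell, with a median of 0.81, led by FOS (2.88), IRF1 (1.94) and CEBPD (1.72).

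Of 13 regulators of mRNA stability, 2 rose and 0 fell against the day 3 knockdown, with a median log2 difference of 0.25. They are known to act in opposite ways. ARID5A, which stabilises IL6 mRNA, was 2.65, 2.76 and 3.91 FPKM in the day 3 knockdown and 10.9, 10.04 and 11.1 FPKM in the day 7 knockdown (1.77 ± 0.197, SE; limma, adjusted p = 3.30e-05). ZFP36L1, which promotes decay of AU-rich mRNAs, was 31.7, 32.8 and 29.1 FPKM and then 94.7, 95.9 and 91.0 FPKM (1.59 ± 0.074, adjusted p = 6.34e-08). Against the control, ZFP36 passed as well (1.06), which made 3 that rose and 0 that fell, with a median of 0.11.

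Of 13 other inflammatory and secreted genes tested, 5 passed as higher and 3 as lower against the day 3 knockdown, with a median log2 difference of 0.58, and the count of 8 was 5 without day 3 knockdown replicate 2. CSF1, the growth factor of macrophages, was 9.58, 10.05 and 11.3 FPKM in the day 3 knockdown and 63.8, 62.7 and 62.4 FPKM in the day 7 knockdown (2.60 ± 0.103, SE; limma, adjusted p = 2.15e-08). C3, the central complement component, was 0.0594, 0.103 and 0.109 FPKM and then 0.771, 0.746 and 0.730 FPKM (2.17 ± 0.252, adjusted p = 4.40e-05). CSF3, the growth factor of granulocytes, was listed at 0 in every day 3 knockdown library and was 0.391, 0.426 and 0.497 FPKM in the day 7 knockdown. The falls included CSF2 (GM-CSF) and SOD2. CSF2 was 0.607, 0.227 and 0.523 FPKM and then 0, 0.0324 and 0 FPKM, and SOD2, a mitochondrial antioxidant enzyme, lay just past the fold threshold. CSF2 reached the minimum mean only through the day 3 libraries, so its call is no support for a fall. Against the control, 5 passed as higher, led by CSF1 (2.62), CSF3 (1.87) and ICAM1, a leukocyte adhesion molecule (1.59), and 2 as lower, among them SOD2 (-1.35), with a median of 0.67. CSF3 and ICAM1, counted in both day 7 comparisons, reached the minimum mean only through the day 7 libraries, so their calls are no support for a rise.

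The genes most like 5 of the chemokine and cytokine genes were found by Pearson's correlation of log2(FPKM + 0.1) over the 9 libraries, among 11333 genes that averaged at least 1 FPKM. For CCL26 they were RPS21 (r = 0.9952), BMP6 (0.9951) and RPS19 (0.9946), and for CXCL10 they were CPE (0.9938), LPAR6 (0.9915) and GPRC5B (0.9898). For CXCL8 they were TMEM214 (0.9938), ARNTL (0.9872) and KDELR3 (0.9866), and for IL6 they were ZNF189 (0.9906), PRKD3 (0.9867) and KCNQ5 (0.9855). For CCL2, whose control level sat between the other groups, they were FXYD5 (0.9793), NXF1 (0.9702) and AKAP7 (0.9679). The points fall into 3 groups of libraries, so a gene that differs at day 7 correlates with many others: r was above 0.9 for 1412 to 1615 genes for CCL26, CXCL8, CXCL10 and IL6, and for 122 genes for CCL2. These values are a description of likeness over the groups and carry no test.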

How the data were processed

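Libraries of U251 cells were sequenced on an Illumina instrument. Per the labels, the submitters' processing notes name HISAT2 and the GRCh38 build, with no version. The deposited table holds FPKM values computed by the authors for 22295 entries, of which 2363 are assembled loci, and the counting tool and annotation are not given in the sources used here. The deposited coordinates of the assembled loci (other values, in GRCh38) were used only to check that 0 of the 10 genes lie within 50 kb of one. Low values showed no steps of whole reads, so the depth is unknown, and no interval or limit for a value of 0 is given.

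Genes averaging at least 0.1 FPKM (15551) were fitted as log2(FPKM + 0.1) with limma 3.58.1 in R 4.3.3, in one model of 3 groups with an intensity trend, with Benjamini-Hochberg adjusted p-values over all tested genes. This scale understates changes of low genes. Fold changes above 2 with adjusted p below 0.05 (day 3) or 0.01 (day 7) passed. The fit was tested on simulated data. The genes, lists and tests were chosen with earlier results of these data known. All 10 genes, the main receptors, ligands with a mean of at least 1 FPKM in a group, up to 3 largest rises and falls per list and comparison, and the 3 genes most like 5 of the members were named; further names were added after the values were seen, and some genes of the lists are not reported here by name. Tables were prepared with Python 3.11.15 and pandas 2.3.3. Alternatives were other pseudocounts, minimum levels and scalings, leaving out assembled loci, fitting the compared groups alone, no trend, a replicate block and leaving out each library.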

Additional observations from a re-analysis of the deposited data

How the results depend on the processing

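Of 352 recomputed differences of the chemokine and IL6 genes, 336 moved by less than the spread between replicates and 16 by more. Of 396 recomputed counts, 379 stayed within 1.5 times. Many of these counts started from 0, namely every list at day 3 and the receptors in every comparison. They had little room to move, and a repeated 0 was scored as unchanged. The 352 leave out CXCL1 and CXCL11, which were not in the fit, and the day 7 comparisons of CCL26, which was at 0 in that group. With a pseudocount of 1, the day 7 differences against the day 3 knockdown were 2.49 for CCL5, 0.65 for CXCL10, 1.15 for CXCL8 and 1.22 for IL6. The sign of a difference changed under some alternatives at day 3 for CCL26, CXCL2, CXCL3, CXCL10 and IL6, and for CXCL3 in the day 7 knockdown against the control. In the day 7 against the day 3 knockdown, the count of inducing cytokines and their receptors was 1 with a pseudocount of 1 and 2 with a pseudocount of 0.01, a mean of at least 1 FPKM, median-ratio scaling or quantile normalization, and leaving out one library gave 2 to 4. The count of other inflammatory genes was 2 with a pseudocount of 1, 3 at a minimum mean of 1 FPKM and 5 to 8 leaving out one library. In the day 7 knockdown against the control, the inducers gave 1 with a pseudocount of 1 or a mean of at least 1 FPKM, and the other inflammatory genes 3 with either. One receptor, CCR1, passed (count 1) in both day 7 comparisons with no filter and with TPM, each time only through its day 7 values. The cause of these shifts was not tested, except that a higher minimum tests fewer genes and no minimum tests more. Quantile normalization moved the median of all genes in the day 7 knockdown against the control from 0.10 to -0.01. Of the named genes that passed against the day 3 knockdown, IL1R1 passed in 7 of 19 alternatives (highest adjusted p = 0.0366), SOD2 in 10 of 20 (0.0298) and ICAM1 in 12 of 19 (0.0221), each by limma. Libraries with the same number did not deviate together (correlations of -0.032 to 0.051), and neither did those with different numbers (-0.073 to 0.061). This cannot tell whether libraries with the same number were handled together. With the replicate block the count of inducers in the day 7 against the day 3 knockdown was 3 in place of 4 and no other count changed. The depth is unknown, so values near 0 are the least certain.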
